A study of Mus musculus with 4 samples.

Results

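The genes Cst7, Itgax, Clec7a, Lyz2 and Timp2 were described in microglia of mice with and without amyloid plaques, 24 h after an antibody to the microglial receptor TREM2. They were taken by symbol, 5 of 19737 genes in the count matrix. Single-cell RNA sequencing had been done on sorted CD11b+ brain cells of 20 mice, 4 in each of 5 groups, and the sources differ on whether hippocampus was taken with cortex. All mice were homozygous for a transferrin receptor with a humanised apical domain, knocked in at the mouse locus (TfRmu/hu), on a C57BL/6J background, and received 10 mg/kg intravenously. The WT;TfRmu/hu groups carried no App mutation and were given ATV:ISO or ATV:4D9. The AppSAA;TfRmu/hu groups, also homozygous for the mutated App knock-in that forms plaques, received ATV:ISO, 4D9 or ATV:4D9. The 4D9 antibody binds mouse TREM2, ATV (antibody transport vehicle) is an Fc domain made to bind the transferrin receptor so that more antibody enters the brain, and ATV:ISO carries an irrelevant Fab. The isotype arm is deposited as ATV-DNP02, which was read as ATV:ISO, although no deposited text says so, and the cohort labels give the antibodies differing Fc backbones. The study's reporting summary gives males aged 8 months for AppSAA;TfRmu/hu mice and both sexes with a wider span of ages for WT;TfRmu/hu mice, and 1 WT;TfRmu/hu mouse given ATV:ISO was recorded as female.

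Microglia near plaques leave the homeostatic state and take on a disease-associated (DAM) program. In the usual account this happens in steps: Lyz2 rises early and without TREM2, whereas Cst7, Itgax, Clec7a and Timp2 belong to the later step, which needs TREM2. Cst7 encodes cystatin F, an inhibitor of lysosomal cysteine proteases. Itgax encodes CD11c, the integrin alpha X chain that pairs with the beta 2 chain. Clec7a encodes Dectin-1, a C-type lectin receptor for beta-glucan that signals through Syk and Card9. Lyz2 encodes the lysozyme of myeloid cells, and Timp2 encodes a secreted inhibitor of matrix metalloproteinases.

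Each mouse gave 2193 to 6126 cells and 17150296 to 102446549 unique molecular identifiers (UMIs, 1 for each RNA molecule counted). Levels are in CPM, the UMIs of a gene scaled to the same total of UMIs in every mouse, which can be compared between mice but not between genes. The UMIs per cell differed between groups: the mean was 8612 ± 711 (SD, n = 4) in WT;TfRmu/hu mice receiving ATV:ISO, 11520 ± 860 for AppSAA;TfRmu/hu mice receiving ATV:ISO, but 16780 ± 1725 and 17116 ± 1283 with ATV:4D9 in the same genotypes. CPM does not carry this difference, so UMIs per cell are given beside it where the answer changes. Of 74758 cells, 1089 (1.46%) had a barcode also found in another pool. Every group had 1 mouse in each of the 4 pools, so mice can be matched within a pool. Only 15 cells (0.0201%) had more UMIs of some other cell type's markers than of the 6 microglial markers, and they held at most 0.0849% of the UMIs of any of the 5 genes. Dendritic cells and monocytes also use Itgax and Lyz2. The 5 dendritic cell markers summed to 1.83 to 4.38 CPM in all 20 mice, while the 5 monocyte markers summed to 4.09 to 10.3 CPM in AppSAA;TfRmu/hu mice receiving ATV:ISO and 10.0 to 13.7 CPM in those given ATV:4D9. The 7 border macrophage markers summed to 16.1 to 31.5 and 19.2 to 34.1 CPM in the same groups. The 3 oligodendrocyte markers summed to 27.8 to 40.5 CPM with ATV:ISO and 14.7 to 26.6 CPM with ATV:4D9 in WT;TfRmu/hu mice, without overlap, and to 30.9 to 44.4 and 15.3 to 37.8 CPM in AppSAA;TfRmu/hu mice, and their part in the results was not tested. No marker was at 0 in every mouse. The 3 endothelial markers summed to 27.1 to 43.9 CPM in AppSAA;TfRmu/hu mice receiving ATV:ISO against 2.45 to 6.88 CPM with ATV:ISO in WT;TfRmu/hu mice, nearly all of it Flt1 (34.6 ± 6.72 against 3.90 ± 1.93 CPM). With ATV:4D9 in AppSAA;TfRmu/hu mice they summed to 9.52 to 21.4 CPM, so they were lower there too, without overlap. The part of such cells in the results was not tested. In sums over a mouse, fewer cells using a gene and less RNA per cell cannot be told apart.

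The stretch just upstream of each start site is shown for Cst7, Itgax and Clec7a because their levels followed each other most closely across mice. Capitals mark an exact match on either strand to any of 4 motifs, GAGGAAGT (a PU.1 motif), CACGTG and CATGTG (E-boxes) and TGACTCA (AP-1). The sequences are RefSeq's for GRCm38.p6, 250 bases ending at the base before the start site, 5′ to 3′ on the strand of the gene. Cst7 lies on the plus strand at chr2:150570165-150570414, Itgax on the plus strand at chr7:128129300-128129549 and Clec7a on the minus strand at chr6:129472780-129473029.
Cst7: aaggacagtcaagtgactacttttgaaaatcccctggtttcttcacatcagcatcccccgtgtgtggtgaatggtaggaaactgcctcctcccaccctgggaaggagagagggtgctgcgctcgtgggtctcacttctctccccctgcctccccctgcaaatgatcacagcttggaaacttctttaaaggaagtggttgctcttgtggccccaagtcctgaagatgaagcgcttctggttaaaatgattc
Itgax: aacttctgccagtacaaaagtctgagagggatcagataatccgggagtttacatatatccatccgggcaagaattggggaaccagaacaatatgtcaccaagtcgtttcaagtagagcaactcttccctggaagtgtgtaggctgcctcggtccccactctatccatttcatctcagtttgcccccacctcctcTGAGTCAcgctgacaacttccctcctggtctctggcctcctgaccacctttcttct
Clec7a: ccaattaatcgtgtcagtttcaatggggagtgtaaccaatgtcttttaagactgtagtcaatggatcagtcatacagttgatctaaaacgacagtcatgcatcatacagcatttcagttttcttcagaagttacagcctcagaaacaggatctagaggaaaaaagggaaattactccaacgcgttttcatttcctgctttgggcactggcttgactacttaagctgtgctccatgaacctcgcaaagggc
An AP-1 motif was matched in Itgax, where it begins 56 bases before the start site and reads on the minus strand. No other exact match was found in the 5 genes, in 250 bases each. Sites that differ from these motifs by a base were not counted. Among all 32851 RefSeq promoter windows of this length, 4.46% held TGACTCA, 2.44% GAGGAAGT, 6.02% CACGTG and 12.3% CATGTG, and 23.0% held any of the 4. In the GENCODE annotation of the same build Cst7 (ENSMUSG00000068129.5) spans chr2:150570415-150578944, Itgax (ENSMUSG00000030789.9) chr7:128129547-128150657, Clec7a (ENSMUSG00000079293.11) chr6:129461591-129472779, Lyz2 chr10:117277331-117282321 and Timp2 chr11:118301069-118355740, the last 3 on the minus strand. Clec7a is entered there as a polymorphic pseudogene. In that annotation, the only gene overlapping any of the 5 was Cep295nl, on the strand of Timp2, with 1313 UMIs in all.

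The difference between genotypes under ATV:ISO shows what plaques were accompanied by in these microglia. All 5 genes were higher in AppSAA;TfRmu/hu mice, from a log2 fold change of 4.00 for Cst7 to 0.74 for Timp2, and none of the 5 overlapped between groups. Fold changes and adjusted p-values are from edgeR's quasi-likelihood test on counts summed over all cells of a mouse, with Benjamini-Hochberg adjustment over 14058 genes, and a gene is called when its adjusted p is under 0.05. The fit also applies a scaling factor to the total of each mouse (TMM), so its fold changes can differ from ratios of the CPM listed. The comparison of genotypes called 28.2% of all genes tested (3960 genes, and 7166 with the pool as a block).

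Cst7 was measured at 104, 108, 125 and 110.0 CPM in the 4 WT;TfRmu/hu mice receiving ATV:ISO (pools 1 to 4) and at 1556, 1765, 1605 and 1346 CPM in the AppSAA;TfRmu/hu mice receiving ATV:ISO. The WT mice lay close together and every AppSAA mouse stood far above them. The log2 fold change was 4.00 ± 0.14 (SE; adjusted p = 7.7e-14), the widest of the 5.

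Itgax was at 13.4, 22.0, 23.3 and 24.7 CPM in the WT;TfRmu/hu mice and at 126, 169.6, 187 and 149 CPM in the AppSAA;TfRmu/hu mice, in both cases with the pool 1 mouse lowest. Its log2 fold change was 3.11 ± 0.19 (adjusted p = 3.5e-10).

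Clec7a was at 44.8, 71.8, 67.9 and 58.9 CPM against 316, 426, 405 and 416 CPM, again lowest in pool 1 in both genotypes, with a log2 fold change of 2.87 ± 0.14 (adjusted p = 1.1e-11). Lyz2, the early gene, was at 523, 671, 576 and 651 CPM in WT;TfRmu/hu mice, so it was well expressed without plaques, and at 1538, 1799, 1610.0 and 1537 CPM in AppSAA;TfRmu/hu mice. Its log2 fold change was 1.61 ± 0.11 (adjusted p = 9.4e-10). Timp2 was at 740.4, 717, 723 and 687 CPM against 1031, 1233, 974 and 959 CPM. Its log2 fold change of 0.74 ± 0.11 (adjusted p = 5.0e-05) was the smallest of the 5, although the groups did not overlap.

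The WT;TfRmu/hu mice receiving ATV:4D9 show the response to the antibody without plaques, and here the 5 genes parted. Cst7, Itgax and Clec7a rose while Lyz2 and Timp2 fell. All 5 were called, in a comparison that called 63.3% of all genes tested.

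Cst7 reached 271, 219, 282 and 282 CPM with ATV:4D9, above every ATV:ISO mouse, with a log2 fold change of 1.36 ± 0.12 (2.56-fold; adjusted p = 8.5e-09). Itgax reached 34.8, 31.6, 46.9 and 47.0 CPM, also without overlap (log2 fold change 1.06 ± 0.18; adjusted p = 3.8e-05). Clec7a moved less, to 75.9, 60.8, 82.5 and 80.8 CPM. The 2 groups overlapped, Clec7a was higher with ATV:4D9 in 3 of 4 pools, and its log2 fold change was 0.42 ± 0.13 (adjusted p = 0.0075).

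Lyz2 went the other way, to 416, 389, 452 and 375 CPM, below every ATV:ISO mouse (log2 fold change -0.45 ± 0.11; adjusted p = 9.6e-04). Timp2 was at 597, 566, 524 and 499 CPM, likewise below every ATV:ISO mouse, with a log2 fold change of -0.27 ± 0.11 (adjusted p = 0.041). The Timp2 call was not stable: the adjusted p was 0.081 with another scaling (RLE), 0.158 without the filter on low counts, 0.070 in DESeq2 and 0.080 with cells of 1000 to 25000 UMIs only. It also rose to between 0.0555 and 0.118 without the mouse of pool 2, 3 or 4 given ATV:4D9 or of pool 1, 2 or 3 given ATV:ISO. The fall of Lyz2 and Timp2 is one relative to the other UMIs of the same mice. Counted in UMIs per cell, Lyz2 went from 5.24 ± 0.88 to 6.84 ± 0.89 and Timp2 from 6.16 ± 0.34 to 9.12 ± 0.46 (SD, n = 4), both higher with ATV:4D9 in 4 of 4 pools, while Cst7 went from 0.965 ± 0.131 to 4.45 ± 0.90.

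In AppSAA;TfRmu/hu mice the same antibody was followed by lower CPM of all 5 genes, with no overlap between groups for any of them. The comparison of ATV:4D9 with ATV:ISO called 55.1% of all genes tested, and all 5 were among them. Cst7 was at 693, 1015, 1069 and 806 CPM with ATV:4D9, with a log2 fold change of -0.75 ± 0.12 (adjusted p = 2.7e-05). Itgax was at 66.1, 91.0, 116 and 94.8 CPM (log2 fold change -0.72 ± 0.17; adjusted p = 0.0016). Clec7a was at 205, 196, 255 and 200.1 CPM, the pool 3 mouse standing above the other 3 (log2 fold change -0.80 ± 0.13; adjusted p = 2.8e-05). Lyz2 was at 679.8, 964, 1057 and 858 CPM (log2 fold change -0.81 ± 0.11; adjusted p = 2.9e-06). Timp2 was at 729, 882, 816 and 708 CPM (log2 fold change -0.36 ± 0.11; adjusted p = 0.012). The Timp2 call was lost with cells of 1000 to 25000 UMIs only (adjusted p = 0.128), without the ATV:4D9 mouse of pool 4 (0.0546) and without the ATV:ISO mouse of pool 2 (0.0666).

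All 5 genes stayed above WT;TfRmu/hu mice receiving the same ATV:4D9, in a comparison that called 11.8% of all genes tested (1661 genes, and 4409 with the pool as a block). The log2 fold change between genotypes under ATV:4D9 was 1.90 ± 0.12 for Cst7, 1.33 ± 0.18 for Itgax, 1.65 ± 0.13 for Clec7a, 1.26 ± 0.11 for Lyz2 and 0.66 ± 0.11 for Timp2. These values stand beside 4.00, 3.11, 2.87, 1.61 and 0.74 under ATV:ISO.

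**Figure D1:**
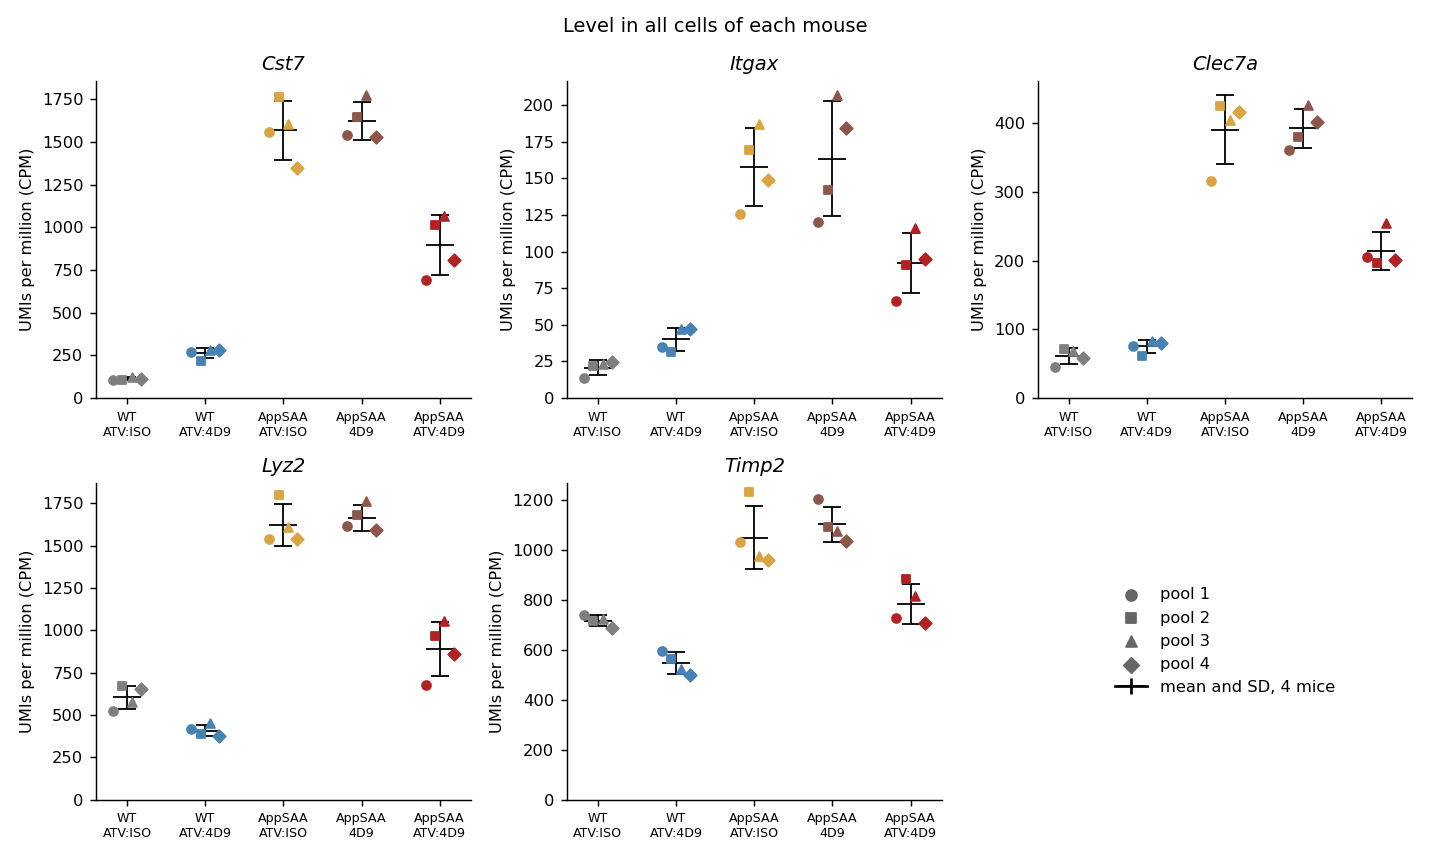
Level of each gene in CPM (linear axes from 0) in all cells of each of 20 mice, by group, with a marker shape for each pool and bars for the mean and SD of 4 mice. Cst7, Itgax and Clec7a are higher with ATV:4D9 than with ATV:ISO in WT mice and lower in AppSAA mice, whereas Lyz2 and Timp2 are lower in both.

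Whether the response to ATV:4D9 differed between genotypes was tested as an interaction, which called 9.14% of all genes tested (1285 of 14058, and 4284 with the pool as a block). It was called for Cst7 (log2 difference of responses -2.10 ± 0.17; adjusted p = 4.1e-07), for Itgax (-1.78 ± 0.25; adjusted p = 1.3e-04) and for Clec7a (-1.22 ± 0.18; adjusted p = 2.3e-04). For Lyz2 the difference was -0.35 ± 0.15 (adjusted p = 0.168), which passed with the pool as a block (adjusted p = 0.047). For Timp2 it was -0.08 ± 0.16 (adjusted p = 0.83), and the interval of 2 SE on either side ran from -0.40 to 0.24. In CPM over all cells the sign of the response turned with genotype for Cst7, Itgax and Clec7a and not for Lyz2 and Timp2. In UMIs per cell the sign turned for Lyz2 as well, with a log2 ratio of 0.39 in WT;TfRmu/hu mice (higher with ATV:4D9 in 4 of 4 pools). In AppSAA;TfRmu/hu mice it was -0.30 (higher in 0 of 4 pools), while Timp2 was above 0 in both genotypes. For Lyz2 the groups overlapped in both genotypes, with an exact permutation p of 0.057 in each (0.101 after adjustment).

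Unmodified 4D9, which lacks the transport vehicle, was compared with ATV:ISO in AppSAA;TfRmu/hu mice. These arms differ in both Fab and vehicle, and no isotype without the vehicle was given, so the Fab alone was not tested. None of the 5 genes was called, as was true of every other gene: 0 of 14058 were called (0.0%) by edgeR, 79 had an unadjusted p under 0.05, limma-voom called 0 and DESeq2 called 1. Those 79 are 0.562% of genes, fewer than a threshold of 0.05 would pass without any difference, so the test was strict here. With the pool as a block, which the main fit leaves out, 0 were called as well. Cst7 was at 1544, 1648, 1773 and 1531 CPM with 4D9, inside the range of the ATV:ISO mice but for pool 3. The log2 fold change was 0.06 ± 0.12 for Cst7, 0.05 ± 0.17 for Itgax, 0.02 ± 0.13 for Clec7a, 0.04 ± 0.11 for Lyz2 and 0.08 ± 0.11 for Timp2. The intervals of 2 SE on either side reached at most 0.40 upwards and 0.29 downwards, both for Itgax. Compared directly, ATV:4D9 was below 4D9 for all 5 genes without overlap, by a log2 fold change of -0.80 for Cst7, -0.77 for Itgax, -0.81 for Clec7a, -0.85 for Lyz2 and -0.44 for Timp2, each with an SE between 0.11 and 0.17 and each called. That comparison called 54.3% of all genes tested and uses the same ATV:4D9 mice as the one against ATV:ISO. In UMIs per cell the log2 ratio of ATV:4D9 to 4D9 was -0.35, -0.34, -0.36 and -0.39 for Cst7, Itgax, Clec7a and Lyz2 and 0.030 for Timp2 (13.3 against 13.1 UMIs per cell), so the sign for Timp2 turned with the scale.

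On the scale of UMIs per cell the lower levels in AppSAA;TfRmu/hu mice shrank. Cst7 was at 18.0 ± 1.98 UMIs per cell with ATV:ISO and at 15.2 ± 2.42 with ATV:4D9 (SD, n = 4), a ratio of 0.844. The ATV:4D9 mouse was the lower of the pair in 4 of 4 pools, but the groups overlapped (p = 0.143 by an exact permutation test, two-sided, and 0.214 after adjustment for 30 comparisons). The ratio was 0.858 for Itgax, 0.810 for Clec7a and 0.811 for Lyz2 (exact permutation p = 0.371, 0.171 and 0.057), with ATV:4D9 the lower of the pair in 4 of 4 pools for Itgax and Lyz2 and in 3 of 4 for Clec7a. This test does not use the pools. For Timp2 it was above 1, from 12.1 ± 1.35 to 13.3 ± 0.51 UMIs per cell (SD, n = 4; exact permutation p = 0.114). The rise in WT;TfRmu/hu mice was wider on this scale, 4.61-fold for Cst7, 3.75-fold for Itgax and 2.41-fold for Clec7a, each with an exact permutation p of 0.0286, the smallest that 4 against 4 mice allow, and an adjusted p of 0.061.

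**Figure D2:**
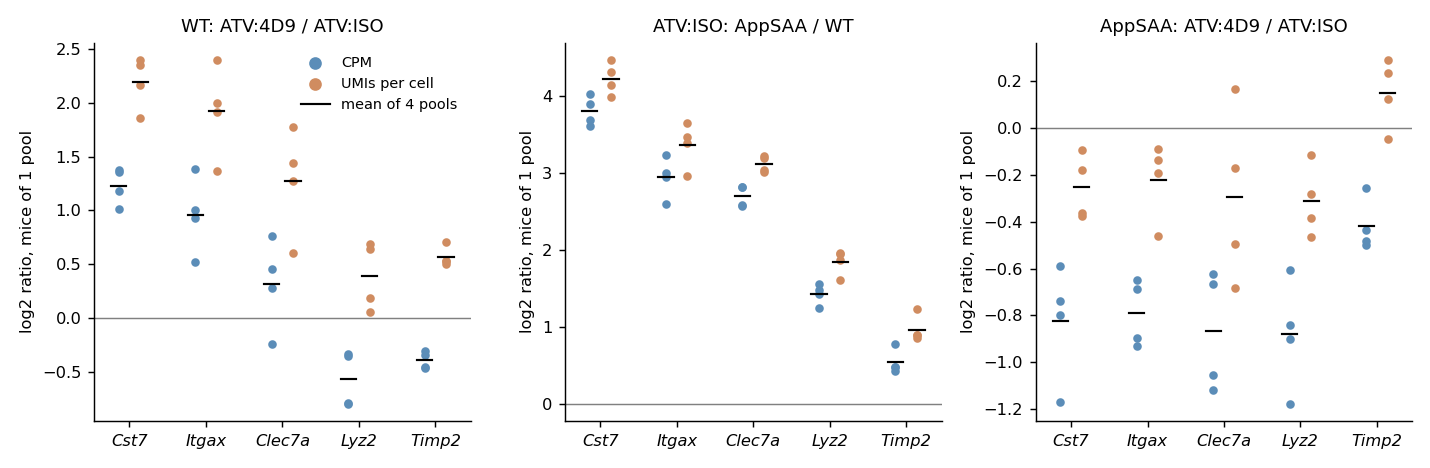
Log2 ratio between 2 groups for mice of the same pool, in CPM (blue) and in UMIs per cell (orange), with 1 point for each of 4 pools and a bar for their mean. With ATV:4D9 the orange points lie above the blue ones throughout, so Lyz2 and Timp2 lie below 0 in WT mice in CPM and above 0 in UMIs per cell, and the fall of Cst7 in AppSAA mice shrinks.

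To see how the UMIs were spread over cells, each cell was thinned to 5000 UMIs, which left out 402 to 1275 shallower cells per group. In WT;TfRmu/hu mice 1084 cells were left out and 8772 kept with ATV:ISO, against 402 and 15540 with ATV:4D9. In AppSAA;TfRmu/hu mice these counts were 1275 and 17598 against 587 and 15871, so the loss was unequal between the groups compared. Free RNA can give a cell a UMI of a gene it does not express. No cell type lacking these genes was large enough to measure that level, but the 5 groups shared each pool, and its part was not tested. Cst7 was at 0 in 70.2% of cells in WT;TfRmu/hu mice receiving ATV:ISO (61.3 to 79.1% over 4 mice). With ATV:4D9 the share at 0 was 41.0% (35.7 to 47.5%), yet only 4.24% of cells held 5 or more. In AppSAA;TfRmu/hu mice receiving ATV:ISO, 38.7% were at 0 (34.3 to 46.9%) and 32.7% held 5 or more (28.6 to 38.0%). With ATV:4D9 in that genotype 23.6% were at 0 (19.6 to 25.3%), lower than in any ATV:ISO mouse, while the 90th percentile cell held 13.5 UMIs (10 to 16) in place of 19.0 (16 to 21). The ranges of the 90th percentile touched, and the share of cells with 5 or more, 27.8% (24.1 to 33.0%) with ATV:4D9, overlapped that with ATV:ISO. The share at 0 is the one that separated the groups, and a thinned cell at 0 may still express Cst7.

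For Clec7a it was the share of rich cells that separated the groups. With ATV:ISO and ATV:4D9 in AppSAA;TfRmu/hu mice its share of cells at 0 was 51.0% (46.2 to 59.4%) and 53.2% (46.1 to 58.4%). Cells with 5 or more Clec7a UMIs made up 11.3% (7.65 to 12.9%) and 4.49% (4.04 to 5.22%), without overlap. Lyz2 was at 0 in 10.2% (8.99 to 12.4%) and 15.8% (12.7 to 18.3%) of cells in these groups, and 5 or more UMIs were held by 48.0% (43.4 to 53.4%) and 31.5% (24.6 to 37.7%). For Lyz2 both ends of the distribution therefore moved down. Itgax was at 0 in 73.6% and 72.7% of cells, and 2.69% (1.60 to 4.02%) and 1.08% (0.558 to 1.46%) held 5 or more, again without overlap.

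The deposited annotation places each cell in a cluster, 6 in a coarser and 9 in a finer version, numbered and without names. Clusters were made from expression, so levels between clusters are a description without a test. Cells of clusters 0 and 3 had high P2ry12, a homeostatic receptor (2856 ± 408 and 2131 ± 444 CPM, SD over 20 mice), and cluster 3 also had high Fos, an immediate early gene (4585 ± 728 CPM). Cluster 1 had high Apoe (17795 ± 5891 CPM, 16 mice), cluster 4 had Mki67, a proliferation marker (519.9 ± 237 CPM), and cluster 5 had Ifit3, an interferon-induced gene (921 ± 279 CPM). Cluster 2 had none of these. These reference genes were picked after their values were seen.

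The shares of cells in the clusters differed between groups. Clusters 0 and 3 held 60.4% and 35.8% of cells in WT;TfRmu/hu mice receiving ATV:ISO. Cluster 1 held 38.3% ± 4.6 (SD, n = 4) of cells in AppSAA;TfRmu/hu mice receiving ATV:ISO, 39.4% ± 2.7 with 4D9, 13.5% ± 3.1 with ATV:4D9, and 1.41% and 0.383% in WT;TfRmu/hu mice receiving ATV:ISO and ATV:4D9. Clusters 2 and 4 together made up most cells of WT;TfRmu/hu mice receiving ATV:4D9 (47.8% and 40.0%), and clusters 2, 4 and 5 held 35.4%, 22.4% and 22.4% in AppSAA;TfRmu/hu mice receiving ATV:4D9.

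All 5 genes were highest in cluster 1. Averaged over mice with at least 20 cells there, Cst7 was at 2526 ± 912 CPM (SD, 16 mice), against 932 ± 687 in cluster 4, 843 ± 379 in cluster 5, 522 ± 250.1 in cluster 2, 147 ± 75.6 in cluster 3 and 123 ± 61.4 in cluster 0. These means pool groups with unlike levels, and the order below cluster 1 depended on the group. Cst7 in AppSAA;TfRmu/hu mice was at 1557 ± 209.8 CPM in cluster 4 and 1057 ± 300.4 in cluster 5 with ATV:ISO, but at 344 ± 23.8 and 1105 ± 151 with ATV:4D9 (SD, n = 4). Itgax had the same leading cluster (263 ± 68.2 CPM) and 17.8 ± 8.08 to 75.0 ± 30.1 CPM elsewhere. Clec7a was at 582 ± 116 CPM in cluster 1 and 40.9 ± 15.3 in cluster 0. In cluster 2 it ranged by group from 86.3 ± 11.4 CPM (WT;TfRmu/hu, ATV:4D9) to 445 ± 240.5 (WT;TfRmu/hu, ATV:ISO, with 23 to 42 cells per mouse). Lyz2 was at 2816 ± 722 CPM in cluster 1 and 535 ± 105 to 1026 ± 472 elsewhere. Timp2 differed least between clusters, at 1376 ± 223 CPM in cluster 1 and 636 ± 149 to 830.0 ± 155 in the others.

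The finer clusters divided the cells of cluster 1, with 67.1% of them in finer cluster 3, 20.9% in finer cluster 6 and 9.4% in finer cluster 8. With ATV:ISO in AppSAA;TfRmu/hu mice, Cst7 was at 4239 ± 543 CPM in finer cluster 6, 3297 ± 196 in finer cluster 8 and 2176 ± 146 in finer cluster 3 (SD, n = 4). Itgax was at 619 ± 68.9, 109 ± 35.4 and 168 ± 27.5 CPM in the same clusters. With ATV:4D9 Cst7 was at 4515 ± 279, 1791 ± 467 and 2617 ± 239 CPM, so the order of finer clusters 8 and 3 turned.

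**Figure D3:**
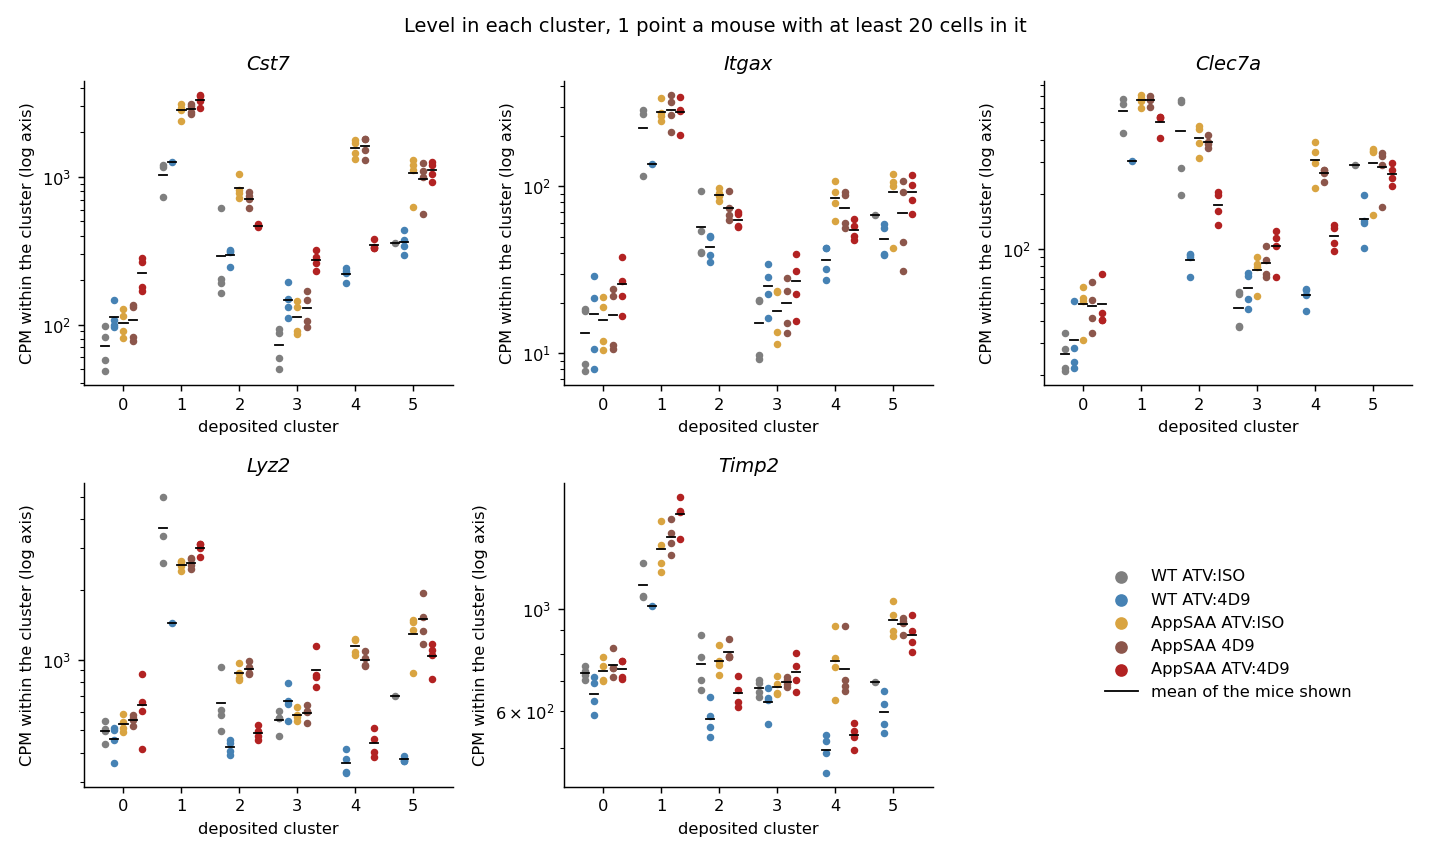
Level of each gene in CPM (log axes) within each of the 6 coarser clusters, with 1 point for each mouse that had at least 20 cells in the cluster, colored by group, and a bar for the mean of the mice shown. Cluster 1 is highest for all 5 genes, and in clusters 2 and 4 the AppSAA mice receiving ATV:ISO or 4D9 lie above both ATV:4D9 groups for Cst7, Lyz2 and Clec7a.

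Since the groups differed in cluster shares, each difference in CPM was split into the amount due to shares at average levels and the amount due to levels within clusters at average shares. Shares were counted in UMIs, and the split was also made within each pool for its spread. The clustering may have used these genes, so a cell with less of a gene can change cluster and be counted under shares. The difference of 1456 CPM in Cst7 between genotypes under ATV:ISO had 936 ± 69.1 CPM in shares and 519.8 ± 135 in levels (mean ± SD over 4 pools). The level amount was above 0 in every pool, but cluster 1 alone gave 478 CPM of it, and that cluster held 1.41% of cells in WT;TfRmu/hu mice. Split on group means, shares carried 86.9% of the difference for Itgax and 88.6% for Clec7a. For Lyz2 they carried more than all of it, 1211 CPM of a difference of 1015 (1227 ± 279.5 CPM when split within pools).

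The fall with ATV:4D9 in AppSAA;TfRmu/hu mice lay mainly in shares for 4 of the 5 genes. It was -625 ± 114 CPM in shares and -47.6 ± 110 in levels for Cst7, -59.0 ± 9.9 and -6.8 ± 7.3 for Itgax, -709 ± 105 and -22.4 ± 71.2 for Lyz2, and -289 ± 51.8 and 23.5 ± 54.6 for Timp2. The level amounts of these 4 genes were no larger than their spread over pools with the coarser clusters. With the finer clusters that of Itgax was -10.4 ± 5.56 CPM, below 0 in every pool. The small sum for Cst7 holds opposite amounts, with -171 CPM in cluster 4 alone. Clec7a differed: shares gave -53.6 ± 24.8 CPM and levels -123 ± 38.9, and the level amount was between -159 and -69.6 in all pools. Split on group means, the largest part of it from any cluster was -45.7 CPM in cluster 2. That cluster held only 2.34% of cells with ATV:ISO, so this part compares few cells with many. With the finer clusters the level amount of Clec7a was -119 ± 39.7 CPM. For ATV:4D9 against ATV:ISO in WT;TfRmu/hu mice, levels gave Clec7a -110 ± 73.7 CPM, below 0 in every pool. Shares gave 124 ± 59.3 CPM, so the rise of Clec7a over all cells there was the sum of opposite amounts. Split on group means, cluster 2 gave -79.6 CPM of the level amount, and it held 1.35% of cells with ATV:ISO in WT;TfRmu/hu mice.

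**Figure D4:**
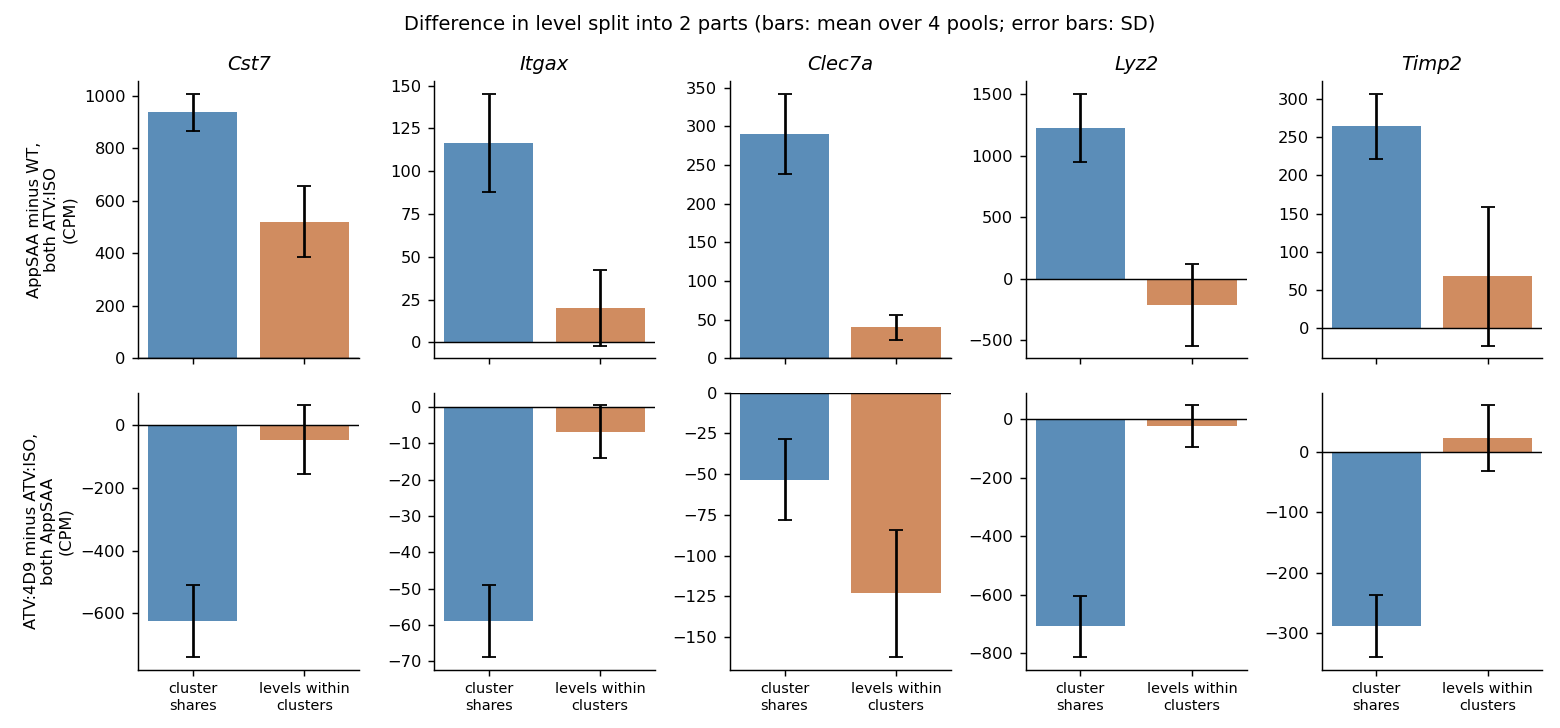
Difference in CPM between 2 groups, split into the amount from cluster shares (blue) and from levels within clusters (orange), as the mean and SD over 4 pools, with a separate linear axis in each panel. The fall with ATV:4D9 lies mainly in shares for Cst7, Itgax, Lyz2 and Timp2 and mainly in levels for Clec7a.

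Within clusters, counts were summed per mouse and cluster and tested in the same way. Cells had been clustered on expression that may include these genes, so such a fold change describes cells that the clustering put together. For ATV:4D9 against ATV:ISO in AppSAA;TfRmu/hu mice, the 5 genes in 6 clusters gave 12 calls, 3 upwards and 9 downwards, and 19 with the pool as a block. The block raised the calls over all genes as well, to 5.27%, 7.25%, 24.8%, 12.6%, 30.1% and 34.3% of genes in clusters 0 to 5, so the added calls are read against these shares.

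In the 2 clusters high in P2ry12, Cst7 rose in both and Lyz2 in cluster 3, opposite to their fall in the whole mouse. In cluster 0 Cst7 was at 80.5, 90.4, 127 and 114 CPM with ATV:ISO and at 169, 178, 267 and 279.9 CPM with ATV:4D9, without overlap and higher in every pool. Its log2 fold change was 1.18 ± 0.20 (2.27-fold; adjusted p = 0.0023), in a comparison that called 0.667% of genes. The call rested on the ATV:4D9 mouse of pool 4, without which the adjusted p was 0.070 at a log2 fold change of 0.99. In cluster 3 Cst7 went from 86.5, 90.7, 144 and 132 CPM to 284, 231, 321 and 263 CPM, a log2 fold change of 1.38 ± 0.20 (adjusted p = 1.4e-04), and Lyz2 from 547, 579, 627 and 568 CPM to 859.9, 761, 1149.8 and 844 CPM (0.75 ± 0.11; adjusted p = 2.2e-04), where 4.33% of genes were called. Itgax, Clec7a and Timp2 were not called in either cluster (log2 fold changes 0.76, 0.13 and 0.07 in cluster 0, 0.64, 0.52 and 0.22 in cluster 3), nor was Lyz2 in cluster 0 (0.35). With the pool as a block, Itgax passed in both clusters (adjusted p = 0.0031 and 0.0014), Lyz2 in cluster 0 (0.0075), and Clec7a (0.0017) and Timp2 (0.019) in cluster 3. With ATV:4D9 these clusters held 37 to 195 and 68 to 268 cells per mouse, a small remainder.

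In cluster 1, where the genes were highest, none of the 5 was called, while 1.34% of genes were. Cst7 was at 3109.8, 2847, 2921 and 2390.0 CPM with ATV:ISO and 3231, 3583, 3521 and 2922 CPM with ATV:4D9, higher in each pool (log2 fold change 0.28 ± 0.13; adjusted p = 0.473). Clec7a was at 596, 651, 682 and 707 CPM against 410.3, 534, 533 and 528 CPM, so the groups did not overlap and it was lower in each pool (log2 fold change -0.35 ± 0.12; adjusted p = 0.241). With the pool as a block the difference in Clec7a passed (adjusted p = 0.011), as it did with sums of at least 50 cells (0.046). Timp2 had a log2 fold change of 0.30 ± 0.12 (adjusted p = 0.374, and 0.049 with the block), Lyz2 one of 0.28 ± 0.15 and Itgax one of 0.04 ± 0.19.

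In cluster 4 all 5 genes fell, where 24.5% of genes were called. Cst7 went from 1682, 1778, 1322 and 1445 CPM to 331, 329, 379 and 337 CPM, a log2 fold change of -2.19 ± 0.13 (adjusted p = 4.8e-11). Clec7a fell by 1.42 ± 0.15 on the log2 scale, Lyz2 by 1.39 ± 0.11, Itgax by 0.68 ± 0.17 and Timp2 by 0.54 ± 0.13. With ATV:ISO this cluster held 27 to 74 cells per mouse (0.949% of cells), and with ATV:4D9 445 to 1438, so the fall compares few cells with many. Cluster 5 called 27.0% of genes and none of the 5, with log2 fold changes between -0.21 and 0.16.

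In cluster 2 (13.2% of genes called), with 75 to 172 cells per mouse under ATV:ISO and 818 to 1971 under ATV:4D9, the answer depended on the clustering. Cst7 fell by 0.80 ± 0.23 on the log2 scale (adjusted p = 0.019), Clec7a by 1.18 ± 0.23 (0.0011), Lyz2 by 0.81 ± 0.13 (9.8e-05) and Itgax by 0.46 ± 0.15 (0.044). Finer cluster 1 held 82.4% of the cells of cluster 2, counted over all groups, so this share says little of the few ATV:ISO cells. It called 18.8% of genes, and Cst7 rose there by 0.64 ± 0.17 (adjusted p = 0.011) and Itgax by 0.39 ± 0.13 (0.041). Clec7a fell there too, by 0.88 ± 0.21 (0.0037), and Lyz2 had a log2 fold change of -0.26 ± 0.10 (0.075). The fall of Itgax in cluster 2 was lost in 7 of 8 fits without a mouse of these 2 groups (all but the ATV:4D9 mouse of pool 4; adjusted p 0.053 to 0.105), and that of Cst7 without the ATV:ISO mouse of pool 2 (0.069). Finer cluster 8 drew 56.7% of its cells from cluster 1 and 29.5% from cluster 2, again over all groups. It called 27.3% of genes and all 5 of these as lower, from -1.44 ± 0.15 for Clec7a to -0.71 ± 0.12 for Timp2. Clec7a therefore fell in cluster 2 and in finer cluster 1 alike, whereas Cst7 and Itgax turned.

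**Figure D5:**
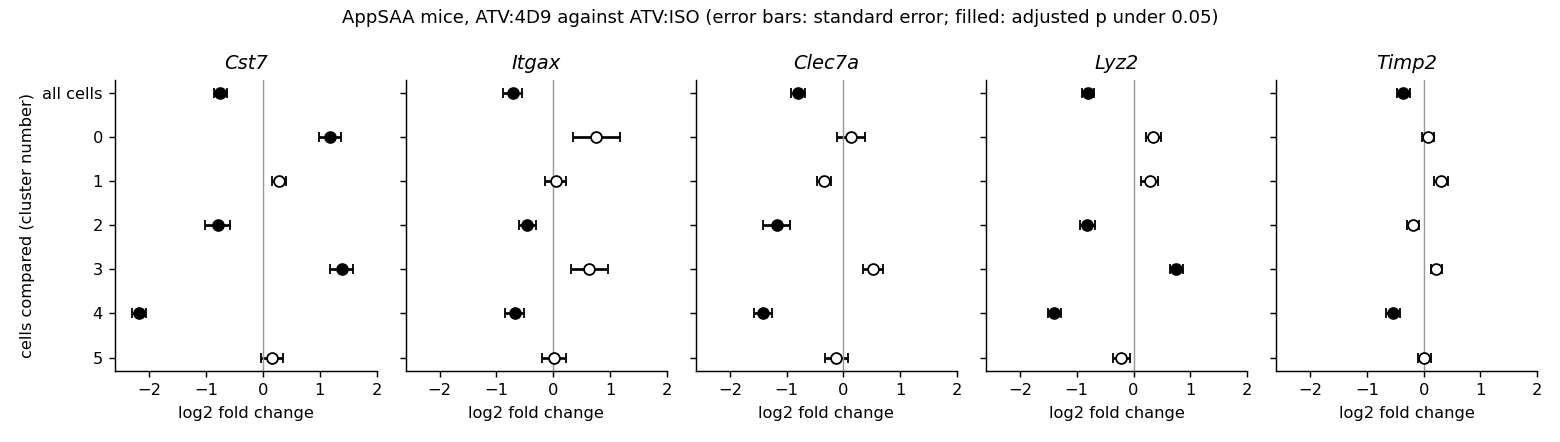
Log2 fold change (with standard error) of ATV:4D9 against ATV:ISO in AppSAA mice, in all cells and within each of 6 clusters, with filled points where the adjusted p was under 0.05. Cst7 is below 0 in all cells and in clusters 2 and 4 but above 0 in clusters 0 and 3.

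For AppSAA;TfRmu/hu against WT;TfRmu/hu mice under ATV:ISO there were 3 calls of 20, and 7 with the pool as a block, which called 4.61%, 2.66%, 1.33% and 1.64% of all genes in clusters 0 to 3. Clec7a rose in cluster 0, from 21.8, 21.0, 34.1 and 28.0 CPM to 31.4, 51.5, 61.6 and 53.6 CPM (log2 fold change 0.95 ± 0.18; adjusted p = 0.00675), where 0.274% of genes were called. That call was lost without the AppSAA mouse of pool 3 (0.062) or the WT mouse of pool 2 (0.053). Cst7 was called in cluster 1 (1.55 ± 0.15, with 1.23% of genes called), although only 3 WT mice with 27 to 62 cells entered. It was also called in cluster 2 (1.57 ± 0.26, with 0.281% of genes called), where finer cluster 1 gave 0.55 (adjusted p = 0.805). Without 1 mouse each, the value in cluster 2 ranged from 1.33 to 2.24. Cst7 in cluster 0 passed with the block only (log2 fold change 0.56 ± 0.18; adjusted p = 0.411, and 7.2e-09 with the block), and none of the 5 was called without it in cluster 3 (0.189% of genes called).

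For ATV:4D9 against ATV:ISO in WT;TfRmu/hu mice there were 4 calls of 15, and 8 with the block, which called 8.96%, 11% and 17.5% of all genes in clusters 0, 2 and 3. Cst7 rose in cluster 3, from 49.9, 59.2, 93.5 and 87.4 CPM to 111, 131, 149 and 194 CPM (log2 fold change 1.11 ± 0.20; adjusted p = 9.8e-04; 6.17% of genes called). In cluster 0 (1.47% of genes called) it had a log2 fold change of 0.66 ± 0.21 (adjusted p = 0.110, and 6.2e-07 with the block). In cluster 2 (5.88% of genes called) Clec7a fell, from 198, 658, 644 and 279 CPM in 23 to 42 cells per mouse to 90.3, 69.3, 93.2 and 92.3 CPM in 1339 to 2186 cells, a log2 fold change of -2.32 ± 0.25 (adjusted p = 7.0e-06). Lyz2 fell there by 0.62 ± 0.13 (0.0061) and Timp2 by 0.38 ± 0.11 (0.046). The Timp2 call was lost in 6 of 8 fits without a mouse of these groups (all but the pool 1 mouse given ATV:4D9 and the pool 4 mouse given ATV:ISO; adjusted p 0.050 to 0.148).

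Between genotypes under ATV:4D9 there were 11 calls of 25, all upwards, and 21 with the block, which called 1.86%, 7.38%, 1.7%, 9.79% and 14.7% of all genes in clusters 0, 2, 3, 4 and 5. All 5 genes were called in cluster 5, where 6.43% of genes were. Cst7 was at 373, 294, 339 and 439 CPM there in WT;TfRmu/hu mice and at 924, 1198, 1257 and 1039.8 CPM in AppSAA;TfRmu/hu mice (log2 fold change 1.68 ± 0.20; adjusted p = 6.1e-06). Lyz2 rose by 1.54 ± 0.15, Itgax by 0.99 ± 0.22, Clec7a by 0.92 ± 0.20 and Timp2 by 0.64 ± 0.11 on the log2 scale. In cluster 4 (2.76% of genes called) Clec7a rose by 1.17 ± 0.14, Cst7 by 0.72 ± 0.12 and Itgax by 0.68 ± 0.14, and in cluster 2 (2.07% of genes called) Clec7a by 1.10 ± 0.23 and Itgax by 0.62 ± 0.14. The call of Itgax in cluster 2 was lost without the WT mouse of pool 2 (0.071). Cst7 was also called in cluster 0 (1.08 ± 0.22; 0.154% of genes called), but lost in 5 of 8 fits without a mouse (pools 3 and 4 of AppSAA, pools 1, 2 and 4 of WT; adjusted p 0.071 to 0.398), and cluster 3 called 0.163% of genes and none of the 5. The block added 4 of the 5 genes in cluster 3 (all but Itgax), Clec7a, Lyz2 and Timp2 in cluster 0, Cst7 and Timp2 in cluster 2 and Lyz2 in cluster 4.

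The genes whose log2(CPM + 1) across the 20 mice was most like that of each member were found among 8028 genes with a mean of at least 10 CPM. The mice form 5 groups, so these correlations mostly describe group means. Cst7 was most like St14 (Pearson r = 0.983), followed by Itgax (0.980), Rab7b, Myo1e and Gm1673. Itgax was most like Myo5a (0.992), then Etl4, Acaca, Xylt1 and Myo1e. Clec7a was most like Anxa5 (0.990), then Nceh1, Fabp3, Rab7b and Bhlhe40. Lyz2 stood with Fabp5 (0.985), Arrdc4, Igf1, Cpq and Tnfsf8, and Timp2 with the protease gene Ctsl (0.982), Sdf4, Pfdn5, Ramp1 and 1700003F12Rik. Among the members, Cst7, Itgax and Clec7a had r between 0.973 and 0.980 with each other, Lyz2 and Timp2 had 0.958, and Timp2 with Itgax had 0.732.

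Other genes of the DAM program give the setting. Of 19 later-step DAM genes other than the members, 19 rose between genotypes under ATV:ISO, where 28.2% of all genes were called (Gpnmb by 4.48, Igf1 by 4.39, Ank by 3.14 and Lpl by 3.10 on the log2 scale), with a median of 2.29 beside -0.06 for all genes tested. In WT;TfRmu/hu mice, where 63.3% of all genes were called, 11 rose with ATV:4D9, among them Lilrb4a (2.33), Lpl (1.83) and Lgals3 (1.19), and 3 fell, with Spp1 at -2.56. In AppSAA;TfRmu/hu mice, where 55.1% of all genes were called, 2 rose and 10 fell, among them Ccl6 (-1.75), Ank (-1.64), Igf1 (-1.53) and Gpnmb (-1.12). The interaction, called for 9.14% of all genes, was called for 13, all with a lower response in AppSAA;TfRmu/hu mice. Of 6 early-step genes, 6 rose between genotypes, and with ATV:4D9 in AppSAA;TfRmu/hu mice 1 rose and 3 fell, Apoe by 0.86.

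The counts for partners of the members stand beside the shares of all genes called, and nothing particular to the partners is read from them. Those shares were 28.2% between genotypes under ATV:ISO, 63.3% with ATV:4D9 in WT;TfRmu/hu mice and 55.1% with it in AppSAA;TfRmu/hu mice. Of 9 tested proteases and cystatins related to Cst7, 4 rose and 0 fell between genotypes (Ctsl by 1.11, Cstb by 1.07, Ctsb by 1.05 and Ctsz by 0.96), and 2 rose and 3 fell with ATV:4D9 in AppSAA;TfRmu/hu mice. Ctsl, a lysosomal protease, fell by 0.79 and Cstb, a cytosolic cystatin, rose by 0.75, as did Ctsc. Of 8 genes for integrin chains and integrin-binding proteins related to Itgax, 3 rose and 1 fell between genotypes. Itgb2, the chain that pairs with Itgax, rose by 0.25, and C3, whose fragment is a ligand, rose by 2.21. With ATV:4D9 in AppSAA;TfRmu/hu mice 2 rose, Icam1 by 0.84 and Tln1 by 0.24, and Itgb2 had a log2 fold change of -0.02.

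The same shares of all genes called apply to the lists below: 28.2% between genotypes, and 63.3% and 55.1% with ATV:4D9 in WT;TfRmu/hu and AppSAA;TfRmu/hu mice. Of 9 genes that carry the Clec7a signal, 0 rose and 3 fell between genotypes (Syk by 0.57). With ATV:4D9, 6 fell in WT;TfRmu/hu mice (Syk by 0.93, Src by 0.93, Nfatc1 by 0.89 and Malt1 by 0.84) and 5 in AppSAA;TfRmu/hu mice (Nfatc1 by 0.78 and Malt1 by 0.76). Of 9 neighbouring C-type lectin genes 2 rose and 1 fell between genotypes, and with ATV:4D9 in AppSAA;TfRmu/hu mice 2 rose (Clec2d by 1.46 and Clec2i by 1.16) and 3 fell (Clec1a by 1.03, Clec4a2 by 0.90 and Clec1b by 0.84). Of 9 tested genes for metalloproteinases and metalloproteinase inhibitors related to Timp2, 0 rose and 2 fell between genotypes. With ATV:4D9 in AppSAA;TfRmu/hu mice 4 rose and 1 fell. Mmp2, which Timp2 inhibits, rose there by 1.58 and Mmp14 by 0.47. Lyz1, a near-identical copy of Lyz2 whose reads may be shared with it, rose between genotypes by 2.27 and fell by 1.11 with ATV:4D9 in AppSAA;TfRmu/hu mice, so Lyz2 counts are uncertain to that extent.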

How the data were processed

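Brain myeloid cells of 20 mice had been sequenced by droplet single-cell RNA-seq in 4 pools. The authors made the values with Cell Ranger 6.1.1 on mm10 per the submitters' processing notes, and deposited raw UMI counts per gene and cell with a cluster for each cell. CellPlex tags had linked each cell to its mouse, and Seurat had been used for integration and clustering. How doublets were treated is not given in the sources used here, and no doublet caller was run. Sums of counts were taken for every mouse, and for every cluster of a mouse with at least 20 cells and at least 3 mice per group. These sums were fitted with edgeR 4.0.16 (filterByExpr, TMM, quasi-likelihood test) in R 4.3.3, over all 5 groups, with Benjamini-Hochberg adjustment over all genes tested and a threshold of 0.05. limma 3.58.1 and DESeq2 1.42.0 were alternatives, and the edgeR fit was tested on simulated data without pool effects.

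Each pool held 1 mouse of every group, and mice of the same pool deviated together: 40 of 40 same-pool pairs had a correlation above 0.1 (0.143 to 0.607), against a median of -0.193 between pools. Depth was 17150296 to 102446549 UMIs per mouse. Mice are separate animals, and intervals of thinned counts were not computed. The 5 genes, the gene lists and the tests were chosen with earlier results of these data known. Named genes of a list are at most 4 per comparison, and genes most like a member are the first 5 by Pearson r. Alternatives were another scaling, no filter on low counts, cells of 1000 to 25000 UMIs, the pool as a block, leaving out each mouse, UMIs per cell, sums of at least 50 cells, thinning to 3000 UMIs and the finer clusters. The finer cluster holding most cells of a coarser one, and the split within each pool, were chosen after seeing the data.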

Additional observations from a re-analysis of the deposited data

Results flagged for a closer look

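With ATV:4D9 in AppSAA;TfRmu/hu mice, Clec7a had 1 mouse apart from the other 3: the pool 3 mouse was at 255 CPM, and its gap to the next mouse, divided by the range of the group, exceeded Dixon's 95% critical value for 4 mice. In all 25 groups of 4 were examined in this way, and chance alone passes about 1 in 20.

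The response to ATV:4D9 differed between genotypes by a test of the difference itself for Cst7 (log2 difference -2.10), Itgax (-1.78) and Clec7a (-1.22), each by edgeR's interaction term. What accompanies the difference was not tested.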

How the results depend on the processing

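Of the log2 fold changes over all cells, 508 alternative values kept their direction and side of the threshold. Timp2 in WT;TfRmu/hu mice (ATV:4D9 against ATV:ISO) lost its call with RLE scaling (-0.24), no filter (-0.20), DESeq2 (-0.24) and cells of 1000 to 25000 UMIs (-0.24), and ranged from -0.35 to -0.23 without 1 mouse each. In AppSAA;TfRmu/hu mice it was -0.21 with cells of 1000 to 25000 UMIs, -0.28 without the ATV:4D9 mouse of pool 4 and -0.24 without the ATV:ISO mouse of pool 2, in a range of -0.42 to -0.24 without 1 mouse each. With the pool as a replicate block the Lyz2 interaction passed (-0.36), and the Timp2 interaction was 0.023 with cells of 1000 to 25000 UMIs and -0.14 to 0.029 without 1 mouse each. The block gave 7166 genes called between genotypes under ATV:ISO, 4409 under ATV:4D9 (1103 to 1719 without 1 mouse each and no block, lowest without the AppSAA mouse of pool 3) and 4284 in the interaction, and DESeq2 called 1 gene for 4D9. Without 1 mouse each, the differences for 4D9 ranged from -0.027 to 0.14 for Cst7, -0.058 to 0.14 for Itgax, -0.061 to 0.085 for Clec7a and -0.00213 to 0.19 for Timp2. The cause was not tested.

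Within clusters, the block gave 8 calls in WT;TfRmu/hu mice, 7 between genotypes under ATV:ISO, 19 in AppSAA;TfRmu/hu mice and 21 between genotypes under ATV:4D9. Sums of at least 50 cells, which drop clusters, gave 1 and 1 in the first comparisons, and leaving out the WT ATV:ISO mouse of pool 1 gave 6 in the second (2 to 6 over all such fits). Cst7 and Itgax in cluster 2 turned to 0.64 and 0.39 in the finer cluster, and Itgax in cluster 1 ranged from -0.083 to 0.14 without 1 mouse each.

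In UMIs per cell the log2 ratio of group means was 2.20, 1.91 and 1.27 for Cst7, Itgax and Clec7a in WT;TfRmu/hu mice and turned to 0.39 for Lyz2 and 0.57 for Timp2. Between genotypes under ATV:ISO it was 4.22, 3.33, 3.10, 1.83 and 0.97. In AppSAA;TfRmu/hu mice it was -0.24, -0.22, -0.30 and -0.30, with Timp2 turning to 0.15, and against 4D9 it was -0.35, -0.34, -0.36 and -0.39, with Timp2 at 0.030. Total UMIs per cell were higher in the first group of each of these comparisons. Split on group means with the finer clusters, shares gave 265 CPM for Cst7 and 30.3 CPM for Itgax in WT;TfRmu/hu mice, in place of 149 and 16.7, and levels -114 and -11.1 CPM in place of 2.90 and 2.49. Split within pools, the finer clusters gave 145 ± 128 and 15.3 ± 15.8 CPM in shares and 6.88 ± 129 and 3.89 ± 14.3 CPM in levels (mean ± SD, n = 4), so this shift was not seen there. Thinning to 3000 UMIs gave 2.64 for Clec7a between genotypes under ATV:ISO.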
